A study of Danio rerio with 10 samples.

Results

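The genes described here code for the heavy chains and the regulatory light chains of nonmuscle myosin II, the motor that pulls on actin filaments in cells that are not muscle. They were chosen by symbol: myh9a, myh9b, myh10 and myh14 for the heavy chains, and myl9a, myl9b, myl12.1 and myl12.2 for the regulatory light chains. All 8 were present in the table of 32266 gene IDs, each on 1 line, and all 8 were among the 20802 genes tested. Polyadenylated RNA was sequenced from pools of 10 whole zebrafish embryos at 33 hours post fertilization, in 5 libraries of rbpms2a-/-; rbpms2b-/- double mutants and 5 of control siblings, numbered 1, 2, 3, 4 and 6 in both groups. Libraries are called mutant 1, control 1 and so on. The mutants were recognised by eye before pooling. The controls carry the label wt, but the design calls them siblings, and neither the genotypes of single siblings nor the nature of the alleles is given in the sources used here.

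Nonmuscle myosin II is a hexamer in which heavy chains carry the motor head and a coiled-coil tail, while essential and regulatory light chains wrap the neck of each head. Phosphorylation of the regulatory light chain by myosin light chain kinases and other kinases switches the motor on and lets the tails assemble into filaments, and a phosphatase reverses it. In embryos these filaments drive cell division, the tension of epithelial sheets and cell migration. Rbpms2 is an RNA-binding protein that acts on splicing in heart muscle, and its other sites of expression are not covered here. The values here are given per gene, with none for single splice forms, and splicing was not tested.

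Total counts per library lay between 21.5 and 36.0 M (M, 1000000 counts), and member genes held between 175 and 31018 estimated counts in a library. Of the targeted genes, rbpms2a had 2.42 to 3.91 CPM (counts per 1000000 counts) in mutants and 4.25 to 7.05 CPM in controls, whereas rbpms2b had 11.98 to 22.2 CPM in mutants and 10.3 to 18.3 CPM in controls. The level of rbpms2b is no check on the labels, since many mutations leave the RNA in place. Markers of 8 tissues were present in all 10 libraries, and 0 of these markers were at 0 throughout. Of the 5 red cell markers chosen, 4 had a line in the data. In whole embryos, fewer cells of a type and less RNA per cell cannot be told apart.

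The family was abundant, and its chains differed widely in level. Per length, in the deposited FPKM (fragments scaled to gene length and to 1000000 reads), the order over all 10 libraries was myl12.1, myh9a, myh9b, myl9b, myl12.2, myh10, myl9a and myh14. Myl12.1 averaged 373.0 ± 20.2 FPKM (SD, n = 10), above 98.7% of tested genes, and myh14 averaged 13.1 ± 1.24 FPKM (SD, n = 10), above 72.7%. Neighbours in this order whose ranges over the 10 libraries did not overlap were myl12.1 and myh9a, myh9a and myh9b, and myh10 and myl9a. The 4 genes from myh9b to myh10 formed a run in which each overlapped the next, and so did myl9a and myh14 at the low end. Within single libraries, though, myh9b was always above myl9b, closest in control 1 at 83.8 against 74.5 FPKM. FPKM of the heavy chains came to 258.3 ± 15.3 in mutants and 249.0 ± 8.17 in controls when summed (SD, n = 5 each). For the regulatory light chains the sums were 510.9 ± 29.0 FPKM in mutants and 484.3 ± 23.1 FPKM in controls (SD, n = 5 each).

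**Figure D1:**
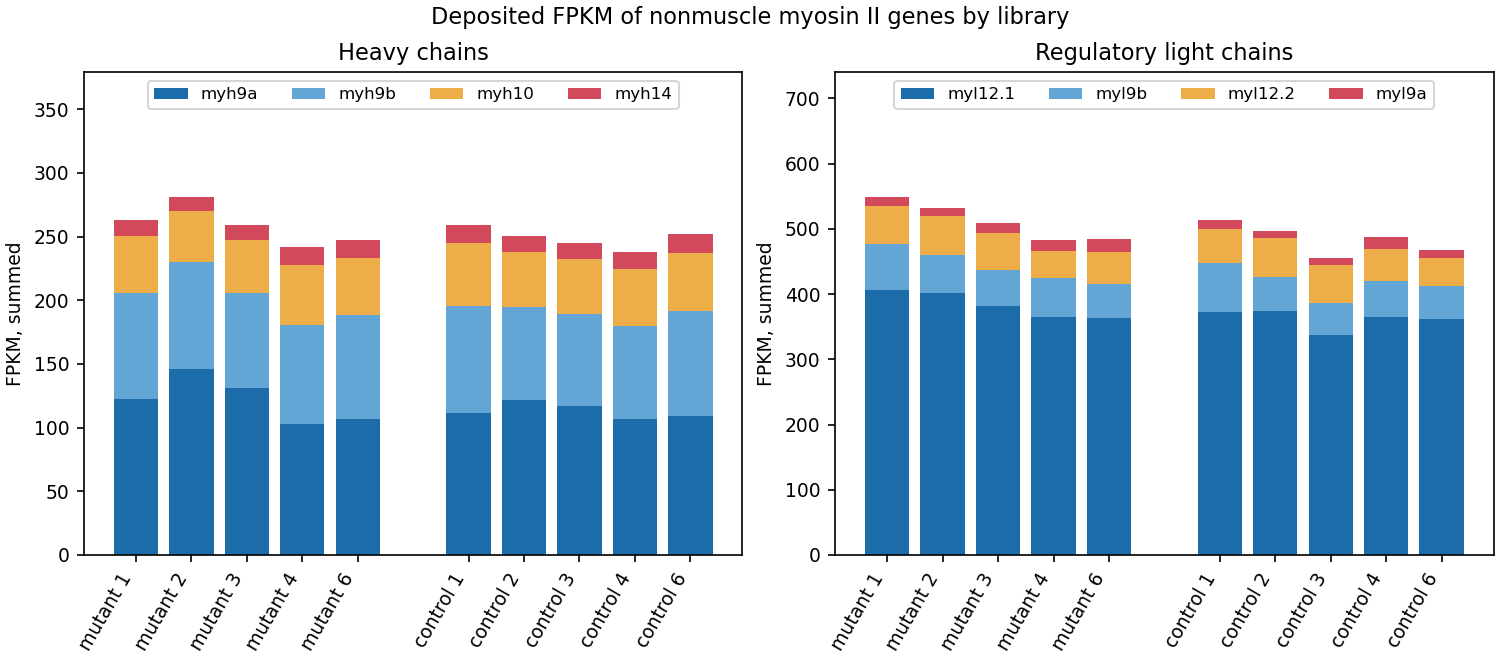
Deposited FPKM of each heavy chain (left) and each regulatory light chain (right), stacked for each of the 5 mutant and 5 control libraries. In every library myh9a is the largest part of the heavy chain bar and myl12.1 the largest part of the light chain bar, with sums of 241.4 to 280.7 FPKM in mutants and 237.5 to 259.4 FPKM in controls for the heavy chains.

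Among the heavy chains, the zebrafish counterparts of mammalian MYH9 took most of the signal. Myh9a made up 47.0 ± 4.19% of the summed heavy chain FPKM in mutants and 45.4 ± 2.47% in controls, and myh9b made up 31.1 ± 1.58% in mutants and 31.0 ± 1.51% in controls (SD, n = 5 each). The share of myh10, whose mammalian counterpart is prominent in the nervous system and heart, was 17.0 ± 2.03% in mutants and 18.1 ± 0.790% in controls. For myh14 it was 4.93 ± 0.782% in mutants and 5.45 ± 0.335% in controls. The ranges of both groups overlapped for each of these shares.

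Among the regulatory light chains, myl12.1 alone gave 75.1 ± 0.579% of the summed FPKM in mutants and 74.8 ± 1.72% in controls (SD, n = 5 each). Myl9b, the more abundant of the MYL9 counterparts, gave 11.6 ± 1.102% in mutants and 11.6 ± 1.66% in controls. The share of myl12.2 was 10.3 ± 1.27% in mutants and 10.8 ± 1.51% in controls, and that of myl9a was 3.00 ± 0.800% in mutants and 2.81 ± 0.683% in controls. The ratio of summed light to summed heavy chain FPKM was 1.98 ± 0.0693 in mutants and 1.95 ± 0.0866 in controls (SD, n = 5 each). With counts divided by the deposited gene length in place of FPKM, that ratio was 1.76 in mutants and 1.75 in controls. Myl6, the gene of the essential light chain, had 58.7 ± 14.1 FPKM in mutants and 55.2 ± 10.99 FPKM in controls (SD, n = 5 each). Summed heavy chain FPKM was 4.57 times that of myl6 in mutants and 4.63 times in controls, and summed regulatory light chain FPKM was 9.03 times that of myl6 in mutants and 8.98 times in controls. Of the heavy chain FPKM found for the nonmuscle genes and 13 lines of a muscle heavy chain list together, the nonmuscle genes held 4.54 to 10.8% in mutants and 4.36 to 9.11% in controls.

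The series asked which genes differ between double mutants and control siblings. None of the 8 nonmuscle myosin II genes passed an adjusted p of 0.05 in edgeR, with or without the replicate number as a block. Over all tested genes 0.00481% passed without the block and 0.255% with it. At an unadjusted edgeR p under 0.05 there were 0 of the 8 without the block (1.95% of all genes) and 1 with it (10.5% of all genes). DESeq2 and limma also called 0 of the 8. The groups' CPM ranges overlapped for all 8, where 0.466% of all genes had ranges that did not overlap. The median log2 fold change of the 8 was 0.04, with 5 higher and 3 lower, and that of all tested genes was 0.002, with 10557 higher and 10245 lower. Adjusted p-values below are from edgeR's quasi-likelihood test after Benjamini and Hochberg, and nothing says whether the pools came from separate crosses, so p-values measure the spread between these pools. Genotype values below are from the fit without the block unless the block is named, since the labels give no pairing. The common coefficient of variation between libraries in edgeR was 17.6% without the block and 6.94% with it, so intervals without it are mostly wider.

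**Figure D2:**
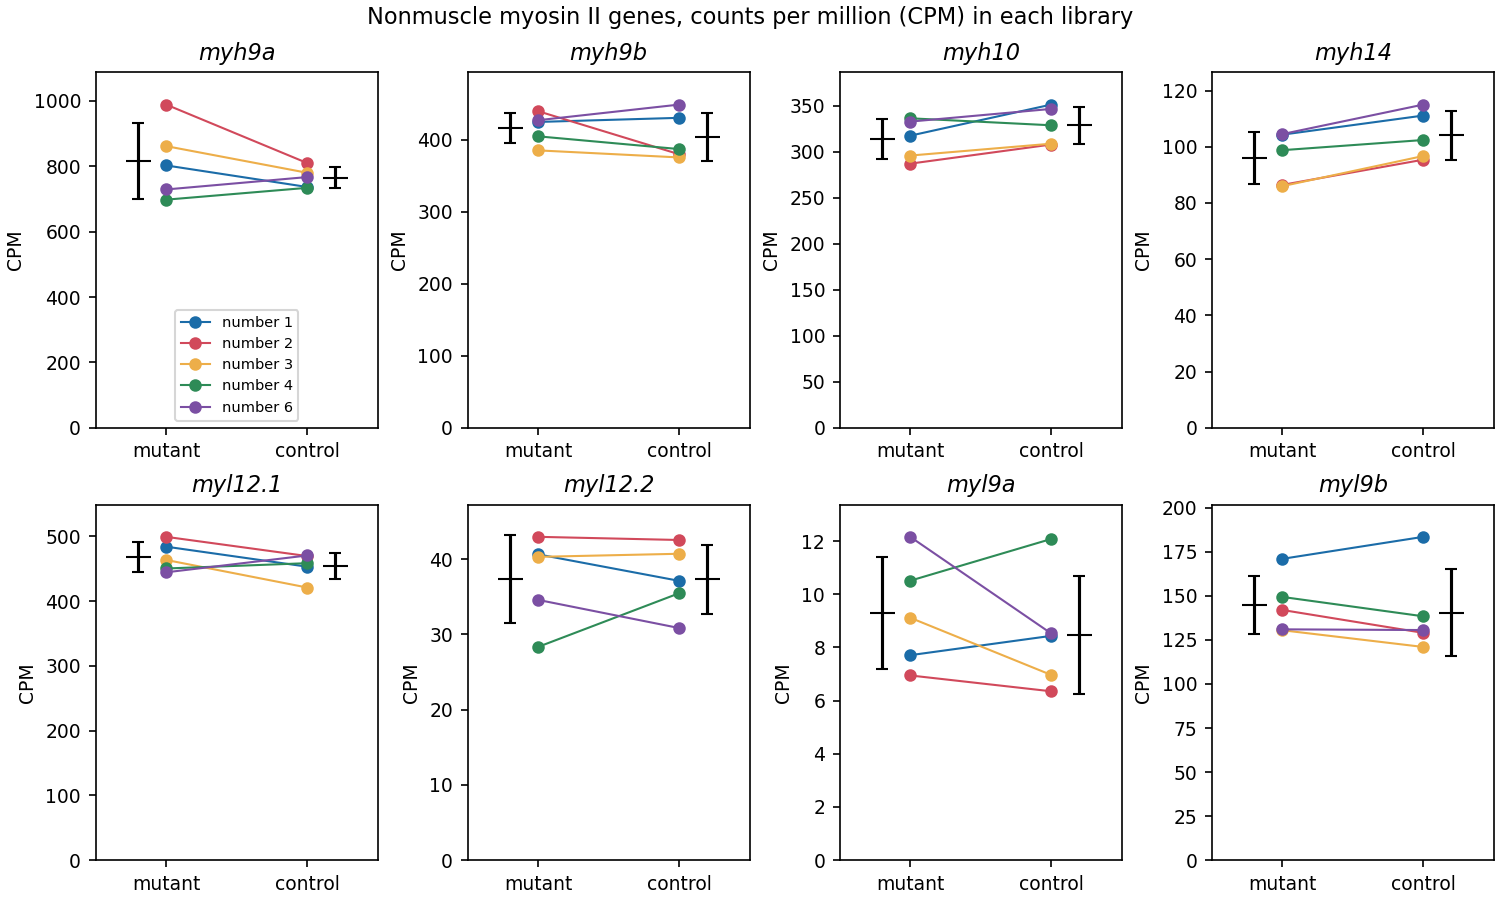
CPM of each gene in each library, mutants left and controls right, with a line joining libraries of the same replicate number and black bars for the mean ± SD of 5 libraries. Both groups overlap in all 8 panels, and myh14 is the gene whose mutant library is the lower one in all 5 pairs.

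Myh9a was the most abundant heavy chain. It had 802.5, 988.5, 861.5, 697.8 and 729.0 CPM in mutants 1, 2, 3, 4 and 6, against 736.6, 809.8, 780.0, 734.0 and 766.9 CPM in the controls of the same numbers. Mutants 2 and 3 were the highest of the 10 libraries, and mutants 4 and 6 lay below every control. The groups averaged 815.9 ± 115.7 CPM in mutants and 765.5 ± 31.6 CPM in controls (SD, n = 5 each). The log2 fold change was 0.09 (SE 0.0886, 95% confidence interval -0.10 to 0.28, adjusted p 1.00 in edgeR), higher in 3 of 5 pairs, and an exact two-sided permutation test of CPM gave p = 0.429.

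Myh9b, the second counterpart of MYH9, varied less. Its level was 424.9, 439.8, 385.4, 404.9 and 427.3 CPM in mutants 1, 2, 3, 4 and 6, against 430.6, 380.0, 375.6, 387.2 and 449.0 CPM in the controls of those numbers. The highest and the lowest libraries were both controls. Its log2 fold change was 0.04 (SE 0.0676, 95% confidence interval -0.10 to 0.19, adjusted p 1.00 in edgeR), with 3 of 5 pairs higher.

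Myh10 codes for the heavy chain known in mammals as myosin IIB. Its levels were 317.6, 287.2, 296.0, 336.5 and 332.9 CPM in mutants 1, 2, 3, 4 and 6, against 351.4, 308.0, 308.9, 328.9 and 346.7 CPM in the matching controls. The mutant library was the lower one in 4 pairs and the higher one in pair 4. The log2 fold change was -0.07 (SE 0.0664, 95% confidence interval -0.21 to 0.08, adjusted p 1.00 in edgeR), and the exact permutation test gave p = 0.286.

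Myh14, the counterpart of the mammalian heavy chain of myosin IIC, was the member with the most even direction in CPM. It had 104.3, 86.4, 86.0, 98.8 and 104.5 CPM in mutants 1, 2, 3, 4 and 6, against 111.1, 95.4, 96.7, 102.4 and 115.0 CPM in the matching controls. Mutant CPM was lower in 5 of 5 pairs, by 0.05 to 0.17 log2 units, a property shared by 5.01% of all tested genes. In deposited FPKM pair 4 went the other way, at 14.01 in mutant 4 against 13.08 in control 4. Of the 8 members, 0 were higher in CPM in 5 of 5 pairs (5.62% of all tested genes). The log2 fold change was -0.12 both without the block (SE 0.0793, 95% confidence interval -0.29 to 0.06, unadjusted p 0.165 and adjusted p 1.00 in edgeR) and with it (SE 0.0379, -0.20 to -0.04, unadjusted p 0.00613 and adjusted p 0.240). The exact permutation test gave p = 0.198. Myh14 did not pass the adjusted threshold in any of 22 other settings, where its adjusted p ran from 0.0788 to 1.00.

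**Figure D3:**
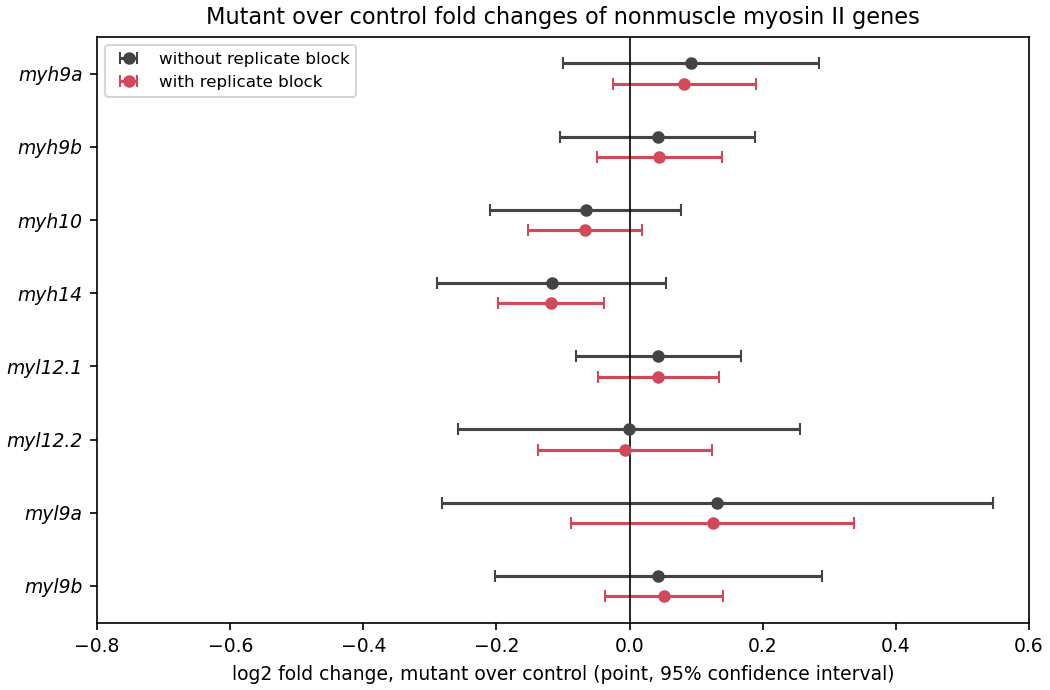
Log2 fold change of each gene, mutant over control, with its 95% confidence interval from edgeR, without (grey) and with (red) the replicate number as a block. All 8 grey intervals include 0, and of the red ones that of myh14, -0.20 to -0.04, lies below it, an interval not adjusted for the 20802 genes tested.

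Of the regulatory light chains, myl12.1, the main one in these embryos, had 484.2, 499.4, 463.7, 450.5 and 444.6 CPM in mutants 1, 2, 3, 4 and 6. The matching controls had 453.3, 469.7, 421.1, 458.7 and 470.6 CPM. Its spread over libraries was the smallest of the 8 genes, with an SD of log2 CPM of 0.07 over 10 libraries. The log2 fold change was 0.04 (SE 0.0572, 95% confidence interval -0.08 to 0.17, adjusted p 1.00 in edgeR), or 0.945 to 1.12 as a fold. Myl12.2 was lower, with 40.6, 43.0, 40.3, 28.3 and 34.6 CPM in mutants 1, 2, 3, 4 and 6, against 37.1, 42.5, 40.7, 35.5 and 30.8 CPM in the matching controls. Its group means were 37.4 ± 5.91 CPM in mutants and 37.3 ± 4.59 CPM in controls (SD, n = 5 each), and its log2 fold change had a 95% confidence interval of -0.26 to 0.26.

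Myl9b, whose mammalian counterpart serves smooth muscle as well as other cells, had 171.0, 142.0, 130.5, 149.4 and 131.0 CPM in mutants 1, 2, 3, 4 and 6, against 183.5, 129.0, 121.0, 138.4 and 130.6 CPM in the matching controls. Both libraries of number 1 stood above all others. The log2 fold change was 0.04 (SE 0.113, 95% confidence interval -0.20 to 0.29, adjusted p 1.00 in edgeR). With the block it was 0.05 (SE 0.0418, 95% confidence interval -0.04 to 0.14). Myl9a, the least abundant of the 8 by count, had 7.71, 6.95, 9.12, 10.5 and 12.16 CPM in mutants 1, 2, 3, 4 and 6, against 8.44, 6.35, 6.97, 12.08 and 8.53 CPM in the matching controls. It had the widest interval, with a log2 fold change of 0.13 (SE 0.191, 95% confidence interval -0.28 to 0.55, adjusted p 1.00 in edgeR). Its pairs ran from -0.20 to 0.51 log2 units, with 3 of 5 higher in mutants.

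The levels of these genes also differed between replicate numbers. In the edgeR fit with genotype and replicate number together, the number terms passed an adjusted p of 0.05 for 6 of the 8 genes, and for 43.3% of all tested genes. Myl9b had the smallest adjusted p, 8.7e-05, followed by myh14 (0.00242), myl9a (0.00458), myl12.2 (0.00582), myh9a (0.0226) and myh10 (0.0470). Myh9b (0.113) and myl12.1 (0.484) did not pass. What the numbers stand for is not labelled. The genes did not share 1 pattern over the numbers: the mean of both libraries was highest in number 2 for myh9a (899.1 CPM), myl12.1 and myl12.2, in number 1 for myl9b (177.2 CPM), in number 6 for myh9b, myh10 and myh14, and in number 4 for myl9a.

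**Figure D4:**
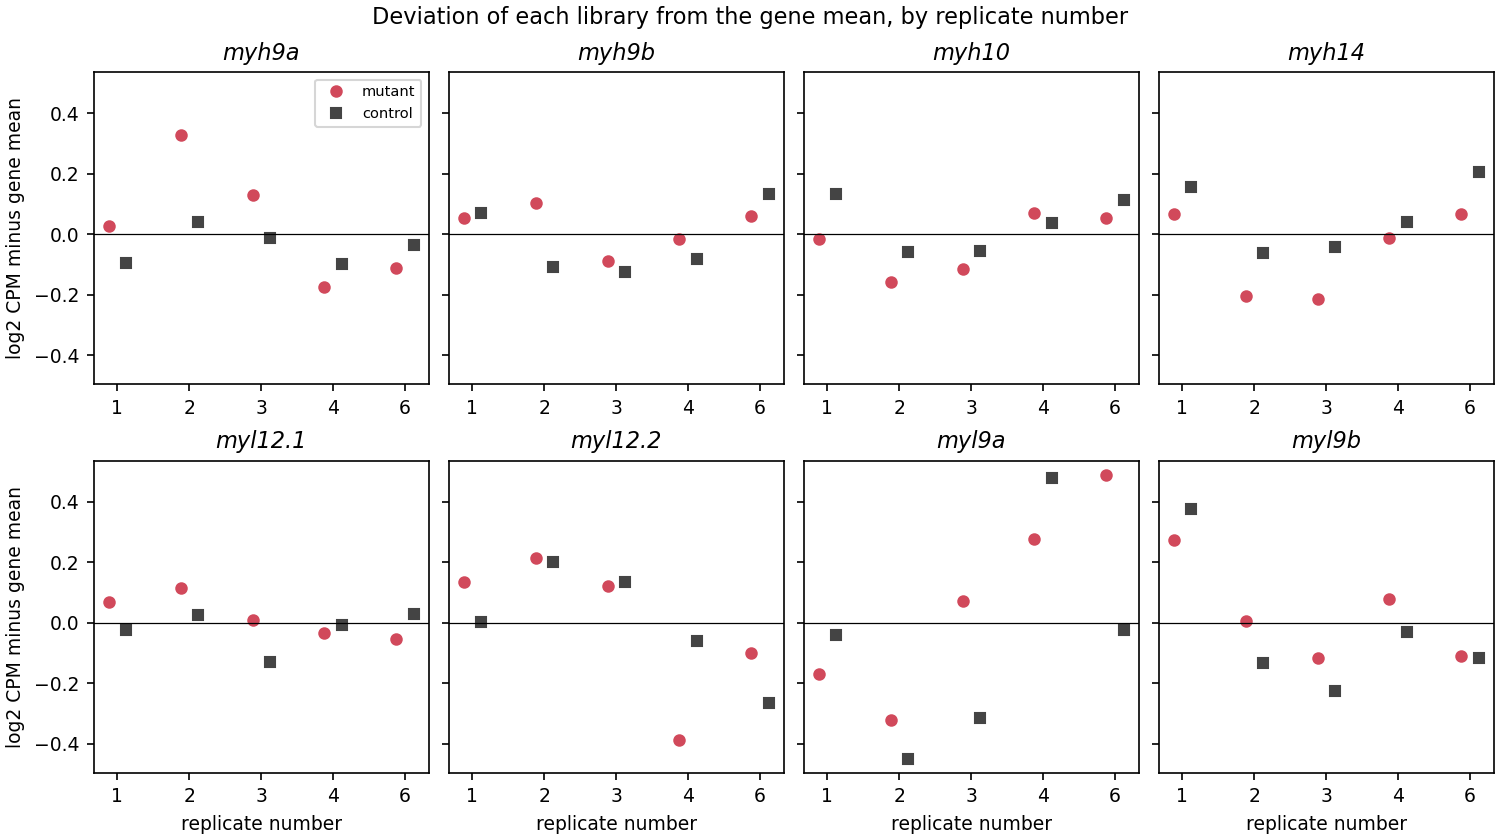
Log2 CPM of each library minus the mean of the gene over all 10 libraries, by replicate number, with mutants as circles and controls as squares. For myl9b both libraries of number 1 lie highest, and numbers 2 and 3 lie low for myh10 and myh14 but high for the mutants in myh9a.

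Likeness between genes was measured as the root mean square difference between standardized log2 CPM over the 10 libraries, where the median over all genes was 1.32 to 1.37 for these members. Within the family, myh10 and myh14 were the closest, at 0.379, and 0.558% of tested genes lay closer to myh10 than myh14 did. Myh9a lay far from myh10 (1.83, with 96.9% of genes closer), and the MYH9 counterparts were 1.27 apart, with 46.6% of genes closer to myh9a than myh9b was. The nearest genes of the whole table were pls3 and pitpnbl for myh9a, zgc:63882 and pabpn1 for myh9b, celsr2 and slc4a7 for myh10, and si:dkey-56m15.5 and baz1b for myh14. For the light chains they were slc25a25a and gch2 (myl12.1), psma5 and timm8b (myl12.2), lin7a and necab3 (myl9a), and si:dkey-229d11.3 and aldh2.1 (myl9b). Pls3 codes for an actin-bundling plastin and celsr2 for a cadherin of planar cell polarity. The other nearest genes are not described here, and a function shared with the members was not tested. All these values share the same 10 libraries and replicate numbers.

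Markers of other tissues moved over the same libraries. Summed CPM of 6 epidermal markers, krt4 and cdh1 among them, was 17230, 20730, 18310, 14340 and 14700 in mutants 1, 2, 3, 4 and 6, against 16280, 19030, 17540, 15150 and 16780 in the matching controls. The mutant was thus higher in pairs 1, 2 and 3 and lower in pairs 4 and 6, the same pairs as for myh9a and for myl12.1. The sum was 84.2% krt4, and 3 of the 6 markers taken singly (krt4, krt5 and cdh1) had those signs in all 5 pairs. The sum of 5 leukocyte markers had those signs too, but of its markers taken singly 1 did, mpx. Summed CPM of 4 neural markers was 623.7, 483.1, 526.5, 781.2 and 666.7 in mutants 1, 2, 3, 4 and 6, against 630.8, 539.9, 552.4, 673.3 and 692.3 in the matching controls. It was higher in the mutant of pair 4 and lower in the other pairs, as was myh10. That sum was 70.7% elavl3, and elavl3 was the 1 marker of the 4 with those signs in all 5 pairs. Of 64 combinations of a member and a marker list, 6 had the same sign in 5 of 5 pairs and 2 the opposite sign in 5 of 5. Besides those above, the same sign was seen for myh9b with the yolk syncytial layer. The opposite sign was seen for myl9b with red cells and with skeletal muscle. Taken singly, 1 of 3 yolk markers (apobb.1) and 1 of 4 red cell markers had the signs of their sum in all 5 pairs. For skeletal muscle 2 of 5 markers did. Some of these signs rest on small differences. The yolk sum was at -0.0068 log2 units in pair 1, and the red cell sum at 0.0065 and -0.0042 in pairs 1 and 2. Myl9b was at 0.0051 in pair 6. These combinations are not independent, since myh9a and myl12.1 shared all their signs, as did the epidermal and leukocyte sums. No such share over all tested genes is given here, so it cannot be said whether these counts are more than usual. The combinations named were picked after their values were seen, and the part of tissue makeup in the levels of these genes was not tested.

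Genes that work with nonmuscle myosin II were then counted in 5 lists, a smooth muscle list included, with 61 tested gene lines, and 0 of them passed the adjusted threshold in edgeR without the block or with it. At an unadjusted p under 0.05 there were 0 of the 61 without the block and 6 of the 61 with it, where 10.5% of all genes were. Some listed genes, such as actn4, tpm1, cita, citb and ppp1r12b, had no line under those symbols and were not counted. Lists were chosen with earlier results of these data known.

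The kinases of the regulatory light chain had 14 tested lines, 9 higher and 5 lower, with a median log2 fold change of 0.02. Mylk5, a kinase of the myosin light chain kinase family, was at 33.2 ± 2.69 CPM in mutants and 30.0 ± 2.46 CPM in controls (SD, n = 5 each), with a log2 fold change of 0.14 (unadjusted edgeR p 0.0913). Of the 9 phosphatase genes, 7 were higher and 2 lower, with a median of 0.05. Mprip, which targets the phosphatase to actin, was at -0.08 (unadjusted edgeR p 0.251) and the regulatory subunit gene ppp1r12c at 0.07 (0.283).

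Among 31 lines for proteins of the cell cortex, 19 were higher and 12 lower, with a median of 0.02, and the smallest p-values were those of shroom4 at -0.11 (unadjusted edgeR p 0.125) and the polarity gene llgl1 at -0.07 (0.189). Unc45a, a chaperone of the myosin motor, and myl6 had log2 fold changes of 0.11 and 0.06 (unadjusted edgeR p 0.274 and 0.698).

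Lists of other myosin-based contractile genes served for comparison. Of 10 smooth muscle lines present, 5 had counts enough to be tested. Of those 5, 4 were higher and 1 lower, with a median of 0.17, and 0 passed. Smtnb was at -0.14 (unadjusted edgeR p 0.0914). Acta2, the smooth muscle actin gene, was at 7.87 ± 3.62 CPM in mutants and 5.89 ± 1.54 CPM in controls (SD, n = 5 each), with a log2 fold change of 0.42 (SE 0.330, unadjusted edgeR p 0.225). Of 21 muscle myosin lines, 1 passed: myh6, the atrial heavy chain gene, had 7.26 ± 1.25 CPM in mutants and 15.5 ± 1.00 CPM in controls (SD, n = 5 each), a log2 fold change of -1.098 (95% confidence interval -1.35 to -0.84, adjusted p 0.0112 in edgeR). That call was lost without control 2 (edgeR adjusted p 0.0621), without mutant 3 (edgeR adjusted p 0.0632) and with limma on log2(FPKM + 0.1) (adjusted p 0.0678). It held in the other settings, such as the replicate block (adjusted p 8.1e-06 in edgeR) and DESeq2 without the block (adjusted p 4.2e-15). The 95% intervals of the 4 nonmuscle heavy chains, which lay between -0.29 and 0.28, did not reach that range. Those are whole-embryo values, and levels of the nonmuscle chains in the heart alone were not measured. Myh7bb, next in the muscle myosin list, was at 0.15 (unadjusted edgeR p 0.200).

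**Figure D5:**
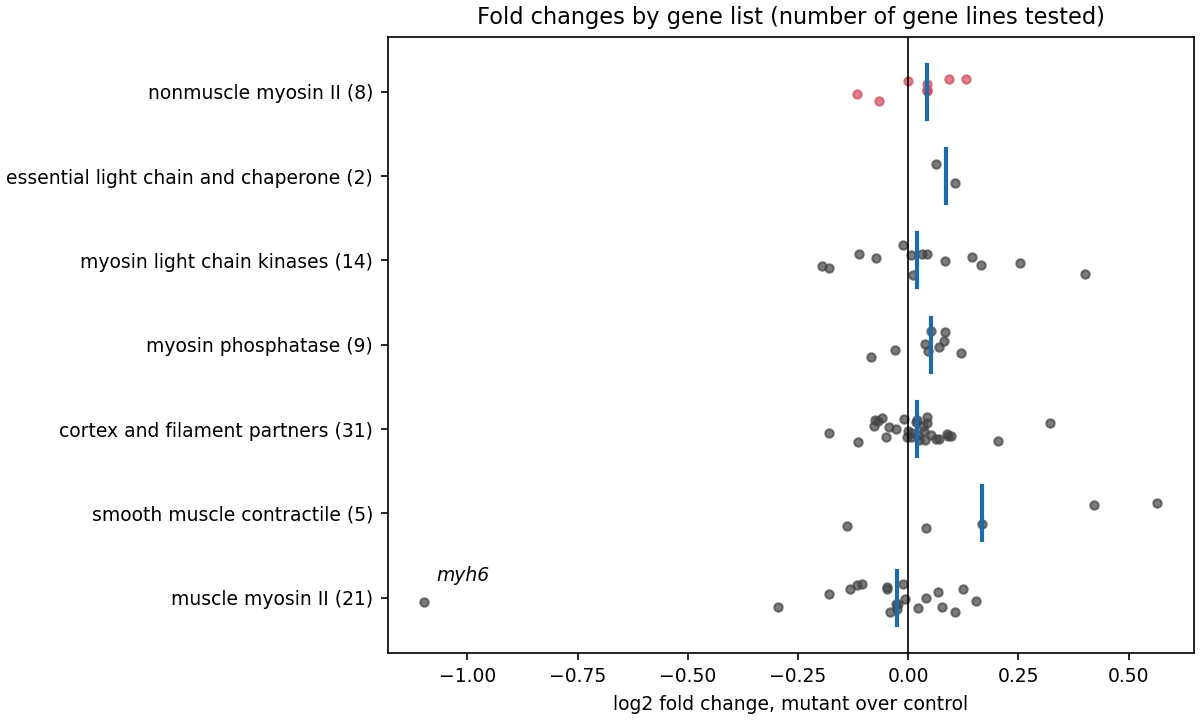
Log2 fold change, mutant over control, of each tested gene line in the nonmuscle myosin II family (red) and in 6 lists of related genes (grey), with a blue bar at each median. Of all points, myh6 at -1.098 is the one that passed the adjusted threshold, and the 8 family members lie between -0.12 and 0.13.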

How the data were processed

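Per the submitters' processing notes, the tools were STAR 2.5.3a, RSEM 1.3.0, BWA 0.7.12-r1039 and bedtools with the build GRCz10, with no roles stated. The annotation release and the use of the strand in counting are not stated there. The authors deposited 1 table with, per gene and library, expected counts, which are estimated counts per gene with no scaling, and log2(FPKM + 0.1) values, plus a gene length. Between 17.8 and 21.6% of the values in a count column had a fractional part. Counts of myh9b, myh10 and myl9b were not whole in any library, so some of their reads were divided with other lines, and their levels are uncertain to that degree. The same holds in part for the other members. Their counts were whole in 2 of 10 libraries for myh9a, 3 for myl12.1, 5 for myh14, 6 for myl9a and 8 for myl12.2.

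Rounded counts were compared by edgeR 4.0.16 under R 4.3.3 (filterByExpr, TMM scaling, robust quasi-likelihood test, two-sided, Benjamini-Hochberg adjustment over all 20802 tested genes, threshold 0.05), after a test on simulated data. 1 count equalled 0.0278 to 0.0465 CPM before scaling. CPM values use TMM factors, and intervals are 95% intervals of the coefficient. Exact permutation tests used all 252 assignments of libraries, with a smallest possible p of 0.00794, and did not keep same-numbered libraries together. Library pairs differed by 5.84 to 79.1 chi-square per degree of freedom (45 pairs), so none was a duplicate. Same-numbered libraries had deviations that correlated at 0.53 to 0.59, over 0.1 in 5 of 5 pairs, and different numbers at -0.45 to 0.50, so the numbers were read as pairs, on the data alone. Alternatives were DESeq2 1.42.0, limma 3.58.1 on log2 FPKM, other scaling, no filter and left-out libraries. A list of regulators and a kinase line are not reported here. The members and lists were chosen with earlier results of these data known. Named genes were all members, list genes past the threshold or with the 2 smallest p-values, and the 2 most alike genes per member.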

Additional observations from a re-analysis of the deposited data

Results flagged for a closer look

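Myl9b in control 1, at 183.5 CPM, stood apart from the other 4 controls, of which the nearest was at 138.4 CPM. It was 1 of 16 groups of 5 libraries examined, and chance alone singles out about 1 group in 20. Mutant 1, the library of the same number, was also the highest of its group at 171.0 CPM. Without control 1 the log2 fold change of myl9b was 0.16 (adjusted p 1.00 in edgeR), and with the replicate block and without number 1 it was 0.09 (adjusted p 0.666 in edgeR).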

How the results depend on the processing

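Of the 8 genes, 0 passed in the main fit and 0 in each of 22 alternatives (DESeq2, limma, other scaling, no filter, left-out libraries, and the replicate block with its own alternatives). Myh9a, myh10, myh14, myl9a and myl12.1 kept their direction in all 22, but not their size: myh9a was at 0.0059 without mutant 2, myl12.1 at 0.0074 without control 3, and myl9a at 0.017 without mutant 6 and 0.287 without control 4. Directions changed for other genes: myh9b was at -0.0041 with the block and without number 2, and myl9b, which ran from -0.029 to 0.16 with a single library left out, was below 0 without control 3 and without mutant 1. Myl12.2 was at 0.016 with limma on log2(FPKM + 1) and on log2(FPKM + 0.1), between -0.063 and 0.084 with a single library left out, and at 0.071 with the block and without number 4. Over all genes the number called was 1 in the main fit, 53 with the replicate block, 92 with the block in DESeq2, 4 in DESeq2, 2 with limma on log2(FPKM + 1) and 0 on log2(FPKM + 0.1). It ran from 0 to 3 with a library left out, and with the block and without number 1, 2, 3, 4 or 6 it was 17, 17, 21, 365 and 79. The replicate block changed no call among the 8. Between 4 and 6 of the 8 genes varied with replicate number when a number was left out. The light to heavy chain ratio was 1.76 in mutants and 1.75 in controls from counts per length, and the cause was not tested. Depth limits myl9a most, with 175 counts in its lowest library.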

Other observations

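In the gene order of the assembly GRCz12tu, which is not the build of the submitters' notes, myh10 and myh9a lie on the same chromosome with 4 protein-coding genes between them, and myl9b lies on it too. Levels of the close neighbours differed in opposite ways between numbers: the mean of both libraries was highest in number 2 for myh9a and lowest in number 2 for myh10. Myl12.1 shares its chromosome with rbpms2b, with 322 protein-coding genes between them, and the other members lie on neither chromosome of the targeted genes. Myh11a, the smooth muscle heavy chain gene, was far below the nonmuscle chains per length, at 0.822 ± 0.0638 FPKM in mutants and 0.726 ± 0.138 FPKM in controls (SD, n = 5 each). Myl6 varied with replicate number (adjusted p 0.000138 in edgeR) and not beyond the spread between libraries with genotype.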
